A study of Mus musculus with 13 samples.

Results

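The genes described here are 9 markers and working parts of T cells: *Cd3d*, *Cd3e*, *Cd3g*, *Cd4*, *Cd8a*, *Cd8b1*, *Lck*, *Cd28* and *Cd5*. They were chosen by name, from what T cells are known to make, and were found by pairing the Ensembl identifiers of the count table with mouse gene symbols. The 9 genes are among 33618 counted genes, and all 9 were among the 16753 genes that had enough reads to be tested. Bulk RNA-Seq had been performed on whole parametrial white adipose tissue (pmWAT), a visceral fat depot of female mice, with 1 library per mouse. The 7 control mice were *Lmna* fl/fl, with loxP sites around exons 10 and 11 of the lamin A/C gene and no Cre. The 6 knockout mice, named iADKO, were *Lmna* fl/fl and *Adipoq*-CreERT2+/-, so that the recombinase was made under the adiponectin promoter, which is active in adipocytes and not in T cells. Mice of both genotypes received tamoxifen at 50 mg/kg for 5 consecutive days, at 12 to 14 weeks of age, and tissue was taken 2 weeks later. The deletion in the iADKO mice was therefore directed to a cell type other than T cells, and the comparison below is of the depot's T cell transcripts between genotypes.

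T cells recognize peptides held by MHC molecules through a receptor whose antigen-binding chains cannot signal by themselves. The CD3 chains, made from *Cd3d*, *Cd3e* and *Cd3g*, assemble with them and carry the cytoplasmic motifs that become phosphorylated. CD4 binds MHC class II and marks helper and regulatory T cells, whereas CD8, a dimer of the products of *Cd8a* and *Cd8b1*, binds MHC class I and marks cytotoxic T cells. Both coreceptors bring LCK, a Src family kinase, to the receptor. CD28 gives the second signal that a naive T cell needs, and CD5 dampens receptor signaling. White adipose tissue holds resident T cells, regulatory T cells among them. Some of these genes are also used elsewhere: *Lck* in natural killer (NK) cells, *Cd5* in a subset of B cells, *Cd4* in some macrophages and dendritic cells, and *Cd8a* in a subset of dendritic cells.

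Coordinates are on GRCm39. The CD3 genes lie together on chromosome 9, *Cd3g* (ENSMUSG00000002033) from 44880870 to 44891735 on the minus strand, *Cd3d* (ENSMUSG00000032094) from 44893083 to 44899173 on the plus strand, and *Cd3e* (ENSMUSG00000032093) from 44910037 to 44920925 on the minus strand. *Cd3g* and *Cd3d* are head to head with 1348 bases between their starts, and the 3 genes span 40056 bases. On chromosome 6, *Cd8b1* (ENSMUSG00000053044) runs from 71299772 to 71315087 and *Cd8a* (ENSMUSG00000053977) from 71350411 to 71356157, both on the plus strand and 35324 bases apart. *Cd4* (ENSMUSG00000023274) lies on the same chromosome from 124841655 to 124874758, on the minus strand. *Lck* (ENSMUSG00000000409) is on chromosome 4 from 129442137 to 129467434, minus strand. *Cd28* (ENSMUSG00000026012) is on chromosome 1 from 60755959 to 60812518, plus strand, and *Cd5* (ENSMUSG00000024669) is on chromosome 19 from 10694480 to 10716366, minus strand. Exons of *Cd3e* overlap an exon of the long noncoding gene *Gm48719* on the opposite strand, and *Lck* overlaps the microRNA gene *Mir8119* on its own strand. The sources used here do not say whether reads were counted by strand, so the *Cd3e* count may include reads of that neighbor.

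The sequences below are the 250 bases before the start of the canonical transcript of *Cd3d*, *Cd4* and *Lck*, the members whose values did not overlap between genotypes. The *Cd3d* and *Lck* windows adjoin the annotated gene, and the *Cd4* window lies inside it, before the canonical start and outside every annotated exon. They are printed 5′ to 3′ on the gene's own strand, from chr9:44892833-44893082 (plus), chr6:124865185-124865434 (minus) and chr4:129467435-129467684 (minus) of GRCm39. Capitals mark matches, on either strand, to TGTGGT, the core bound by RUNX factors, to AGGAAG, an ETS core, and to CAGNTG, the E-box.
Cd3d: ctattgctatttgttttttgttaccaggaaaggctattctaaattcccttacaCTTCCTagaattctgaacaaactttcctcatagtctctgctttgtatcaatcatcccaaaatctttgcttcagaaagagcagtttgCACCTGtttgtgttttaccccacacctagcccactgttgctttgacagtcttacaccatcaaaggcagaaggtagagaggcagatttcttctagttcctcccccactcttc
Cd4: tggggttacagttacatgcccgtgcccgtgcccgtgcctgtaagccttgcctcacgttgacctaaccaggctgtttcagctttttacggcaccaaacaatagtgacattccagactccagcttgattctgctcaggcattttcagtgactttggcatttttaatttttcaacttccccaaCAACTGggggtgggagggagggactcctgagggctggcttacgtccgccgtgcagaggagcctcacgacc
Lck: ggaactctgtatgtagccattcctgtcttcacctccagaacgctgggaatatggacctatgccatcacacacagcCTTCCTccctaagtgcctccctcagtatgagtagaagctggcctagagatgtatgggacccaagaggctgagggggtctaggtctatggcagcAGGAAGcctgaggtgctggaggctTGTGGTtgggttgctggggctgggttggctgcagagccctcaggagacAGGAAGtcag
Factors of these 3 families are known to act in T cell development. In the 250 bases before each member's start, the RUNX core was found for 2 of 9 members (*Lck* and *Cd28*), the ETS core for 5 of 9 and the E-box for 4 of 9. Among 21770 protein-coding promoters of the same length, 2835 (13%) held the RUNX core, and the ETS core and E-box were in 28.9% and 43.0%. *Lck* held 3 ETS matches and 1 RUNX match, *Cd3d* an ETS match and an E-box, and *Cd4* an E-box alone. The *Cd8a* window held no match to any of the 3 motifs. The matches are a description of these letters, and no binding was measured.

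Between 18854223 and 19776491 reads per library were counted on genes, with medians of 19533703 in fl/fl (n = 7) and 19494365 in iADKO (n = 6). Values are given as TMM-normalized CPM, the share of a library's reads scaled to a common library size, and genotypes were compared with edgeR's quasi-likelihood test, with p-values adjusted over all genes tested. *Lmna* itself did not fall with the iADKO label. It averaged 84.7 ± 7.51 CPM over the controls (SD, n = 7), 96.7 ± 11.5 CPM over the knockouts (SD, n = 6), and the log2 fold change was 0.19 with a standard error (SE) of 0.079 (adjusted p = 0.0785). The counts are for the whole gene, so the floxed exons cannot be seen apart, and every direction below rests on the libraries' labels. Summed markers of adipocytes were at 7741 to 13510 CPM in the libraries labelled fl/fl and 4668 to 7942 CPM in those labelled iADKO. These ranges overlapped through fl/fl replicate 5, the lowest of its group, and iADKO replicate 6, the highest of its group, and results are also given without this pair of libraries. With the pair left out, *Cd3d*, *Cd4* and *Lck* kept their calls and *Cd28* gained one.

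T cell transcripts were scarce but present in every library. The lowest count of any member was 12, for *Cd8b1*, and the highest 283, for *Cd4*. Of the 9 genes, 3 were higher in iADKO at an adjusted p under 0.05, *Cd4* by 1.61-fold, *Cd3d* by 1.54-fold and *Lck* by 1.34-fold, and none was lower. Of all 16753 genes tested, 14.1% were higher by the same rule and 2737 genes were lower. The same 3 genes were those in which every iADKO library lay above every fl/fl library, a pattern that 2.71% of all genes tested showed. The other 6 members did not pass the test, although their fitted log2 fold changes were also above 0, and the median of the 9 was 0.44 (range 0.25 to 0.68) beside 0.03 over all genes tested. Summed over the 9 genes, CPM were 27.1 to 42.8 in fl/fl and 44.7 to 55.6 in iADKO. In whole tissue, more T cells, more RNA per T cell and RNA of other cells that use these genes cannot be told apart. The part of the lower share of adipocyte transcripts was not tested.

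**Figure D1:**
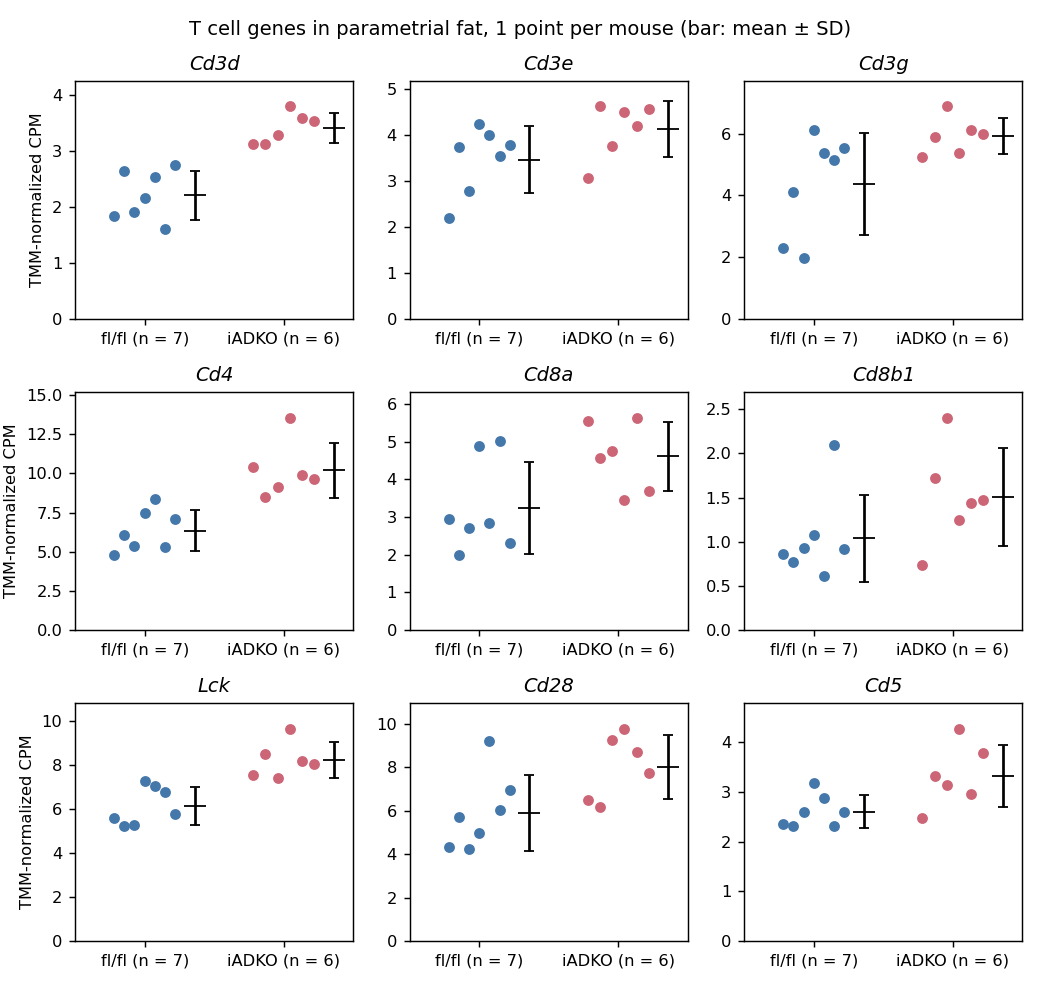
TMM-normalized CPM (linear axes from 0) of each of the 9 T cell genes in the 7 fl/fl and 6 iADKO libraries, with 1 point per library and the mean and SD of each group. The groups are apart for *Cd3d*, *Cd4* and *Lck* and overlap for the other 6 genes, and the fl/fl point of *Cd8b1* at 2.10 CPM stands above the rest of its group.

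Of the CD3 genes, *Cd3d* was called, and *Cd3e* and *Cd3g* were not. *Cd3d*, whose product pairs with CD3 epsilon, had a lowest, median and highest value of 1.60, 2.15 and 2.75 CPM in fl/fl and of 3.11, 3.40 and 3.79 CPM in iADKO. All 6 iADKO libraries were above all 7 fl/fl libraries, and the iADKO libraries lay close to each other. The fl/fl libraries averaged 2.20 ± 0.443 CPM (SD, n = 7), the iADKO libraries 3.40 ± 0.275 CPM (SD, n = 6), and the log2 fold change was 0.63 (SE 0.14, adjusted p = 0.00444, exact permutation p = 0.00117). With the runs of library numbers described below as a block, the adjusted p was 0.0523, and the other 22 alternatives kept *Cd3d* under the threshold (adjusted p from 0.000459).

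*Cd3e*, which is needed for every CD3 dimer and is the usual marker of all T cells, had a lowest, median and highest value of 2.18, 3.73 and 4.24 CPM in fl/fl and of 3.06, 4.36 and 4.62 CPM in iADKO. The groups overlapped over most of their range, with 3 of 6 iADKO libraries above the highest fl/fl library and 5 of 7 fl/fl libraries above the lowest iADKO library. The log2 fold change was 0.25 (SE 0.16, adjusted p = 0.237, exact permutation p = 0.138), and none of 23 alternatives brought it past the threshold. *Cd3g*, the gamma chain, was more spread in fl/fl, at 1.96, 5.13 and 6.12 CPM, than in iADKO, at 5.25, 5.93 and 6.88 CPM. In fl/fl replicates 1 and 3 it was at 2.30 and 1.96 CPM, below the other fl/fl libraries, of which 3 reached into the iADKO range. The log2 fold change of *Cd3g* was 0.44 (SE 0.23, adjusted p = 0.161, exact permutation p = 0.0612), and it too was called under none of the alternatives.

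Among the coreceptors, *Cd4* was the member with the greatest fold change and the firmest call. Its lowest, median and highest values were 4.77, 6.04 and 8.35 CPM in fl/fl and 8.49, 9.78 and 13.6 CPM in iADKO. The groups met closely, since fl/fl replicate 5 at 8.35 CPM was just under iADKO replicate 2 at 8.49 CPM. The fl/fl libraries averaged 6.34 ± 1.32 CPM (SD, n = 7), the iADKO libraries 10.2 ± 1.78 CPM (SD, n = 6), and the log2 fold change was 0.68 (SE 0.14, adjusted p = 0.00346, exact permutation p = 0.00117). *Cd4* was higher at an adjusted p under 0.05 in all 23 alternatives, with adjusted p-values from 0.000118 to 0.0193 and log2 fold changes from 0.41, on the shrunken rlog scale, to 0.77.

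*Cd8a*, which codes for the chain shared by both forms of CD8, was at 1.98, 2.83 and 5.02 CPM (lowest, median and highest) in fl/fl and at 3.45, 4.67 and 5.64 CPM in iADKO. Its fl/fl values fell apart, with replicates 4 and 6 at 4.89 and 5.02 CPM, inside the iADKO range, and the other 5 below every iADKO library. The log2 fold change was 0.51 (SE 0.22, adjusted p = 0.0929, exact permutation p = 0.0414). Leaving out fl/fl replicate 4 or 6 gave adjusted p-values of 0.0414 and 0.0373, and the other alternatives ranged up to 0.261. *Cd8b1*, which marks the CD8 alpha-beta dimer of conventional cytotoxic T cells, was the least counted member, with 12 to 38 reads in fl/fl and 15 to 50 in iADKO. It was at 0.607, 0.916 and 2.10 CPM in fl/fl and at 0.730, 1.45 and 2.41 CPM in iADKO, where only 1 library exceeded the highest fl/fl library. The log2 fold change of *Cd8b1* was 0.54 (SE 0.30, adjusted p = 0.181, exact permutation p = 0.106). Without fl/fl replicate 6, the highest of its group for both CD8 genes, it was 0.81 (adjusted p = 0.0327).

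*Lck* was the third member called. Its lowest, median and highest values were 5.21, 5.76 and 7.25 CPM in fl/fl and 7.41, 8.11 and 9.64 CPM in iADKO. The highest fl/fl library (replicate 4) and the lowest iADKO library (replicate 3) were close, but none crossed. The fl/fl libraries averaged 6.13 ± 0.870 CPM (SD, n = 7), the iADKO libraries 8.22 ± 0.805 CPM (SD, n = 6), and the log2 fold change was 0.42 (SE 0.10, adjusted p = 0.00832, exact permutation p = 0.00175). With 1 surrogate variable as a covariate the adjusted p was 0.0529, and in the other 22 alternatives it stayed under 0.05 (from 0.00185).

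*Cd28* and *Cd5* were not called, and each passed in 2 of 23 alternatives, as did *Cd8a*. *Cd28*, the costimulatory receptor, was at 4.22, 5.71 and 9.21 CPM in fl/fl and at 6.16, 8.23 and 9.79 CPM in iADKO. A single fl/fl library, replicate 5, was at 9.21 CPM, above 4 of the 6 iADKO libraries, while the next fl/fl value was 6.95 CPM. The log2 fold change of *Cd28* was 0.44 (SE 0.18, adjusted p = 0.0771, exact permutation p = 0.0379). Without fl/fl replicate 5 it was 0.59 (adjusted p = 0.00741), and over all alternatives the adjusted p ran up to 0.334. *Cd5*, the inhibitory scavenger receptor family member whose level follows receptor signal strength, was the most even in fl/fl, at 2.30, 2.59 and 3.17 CPM, and was at 2.48, 3.22 and 4.27 CPM in iADKO. In *Cd5*, 3 of 6 iADKO libraries were above the highest fl/fl library (log2 fold change 0.35, SE 0.14, adjusted p = 0.0648, exact permutation p = 0.0227). Leaving out fl/fl replicate 4 or iADKO replicate 1 brought the adjusted p to 0.0473 and 0.0318, out of a range up to 0.173.

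The permutation values were computed for each member by itself and were not adjusted over the 9. Under this test 6 of 9 members had a p under 0.05, where the smallest p that 1716 splits into 7 and 6 libraries can give is 0.000583. For *Cd8a* and *Cd28* the p rose above 0.05 in 9 and 8 of the 13 fits that left out a single library.

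**Figure D2:**
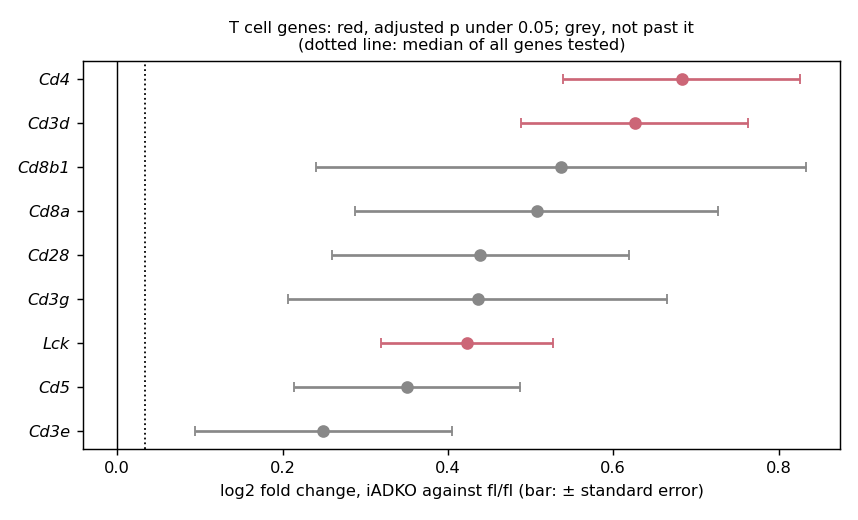
Fitted log2 fold change of each T cell gene, iADKO minus fl/fl, with bars of ± 1 SE, where red marks an adjusted p under 0.05. *Cd4*, *Cd3d* and *Lck* are those past the threshold, all 9 points lie above 0, and the dotted line at 0.03 marks the median of all genes tested.

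Divided by the summed length of all annotated exons, levels can be set beside each other between genes. In fl/fl, *Lck* was highest at 1.95 ± 0.276 CPM per kb (SD, n = 7), and *Cd4* at 1.41 ± 0.294 and *Cd3g* at 1.33 ± 0.501 CPM per kb followed and did not differ beyond their spread. *Cd28* (0.966), *Cd8a* (0.891), *Cd3d* (0.851) and *Cd3e* (0.848 CPM per kb) were within an SD of each other, and so were *Cd5* (0.515) and *Cd8b1* (0.469 CPM per kb) at the bottom. In iADKO, *Lck* at 2.61 ± 0.256 and *Cd4* at 2.27 ± 0.396 CPM per kb (SD, n = 6) were again first, within their spread. *Cd3g* followed at 1.81 ± 0.179 CPM per kb. *Cd3d*, *Cd28* and *Cd8a* were level at 1.31, 1.31 and 1.27 CPM per kb, with *Cd3e* below them at 1.01 ± 0.149 CPM per kb, and *Cd8b1* (0.680) and *Cd5* (0.657 CPM per kb) were last. Per kb of exon, *Cd3d* and *Cd3e* were thus side by side in fl/fl and apart by more than the spread of either in iADKO. Their ratio within libraries, given below, overlapped between genotypes and did not pass after adjustment (exact permutation p = 0.175 adjusted over 7 ratios).

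Part of the spread of the low members was counting error. The coefficient of variation between fl/fl libraries was 47.3% for *Cd8b1*, where counting error alone gives 23.0%, and 12.4% for *Cd5*, where counting error alone gives 14.5%. In iADKO, the coefficients of *Cd3d* (8.07%) and *Cd3g* (9.89%) were close to or under what counting gives (11.9% and 9.01%). *Cd3g*, *Cd8a* and *Cd28* varied well beyond counting in fl/fl, at 37.6%, 37.5% and 29.5% against 11.1%, 13% and 9.57%. The called genes *Cd4*, *Lck* and *Cd3d* were at 20.8%, 14.2% and 20.1% in fl/fl against 9.25%, 9.43% and 15.7%, and *Cd3e* at 21.0% against 12.5%. Counting error covers the reads drawn, not the sampling of cells or tissue.

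Ratios within a library do not depend on library size and show whether the members moved in proportion. The ratio of *Cd4* to *Cd8a*, a rough measure of helper against cytotoxic T cell transcripts, was 1.00 ± 0.583 on the log2 scale in fl/fl (SD, n = 7) and 1.14 ± 0.444 in iADKO (SD, n = 6). The difference of 0.14 was within the spread (exact permutation p = 0.642, 0.749 adjusted over 7 ratios). The ratio of *Cd8a* to *Cd8b1* also differed by less than the spread, at 1.57 ± 0.374 and 1.61 ± 0.644 (exact permutation p = 0.902). Relative to *Cd3e*, *Cd3d* was higher in iADKO by 0.37 (exact permutation p = 0.0251, 0.175 adjusted over 7 ratios), and without iADKO replicate 1 or 3 the unadjusted p was 0.0606 and 0.0505. The ratios of *Cd3g*, *Lck*, *Cd28* and *Cd5* to *Cd3e* differed by 0.27, 0.16, 0.20 and 0.07, with adjusted exact permutation p-values of 0.459, 0.459, 0.459 and 0.749. No ratio between members passed after adjustment.

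**Figure D3:**
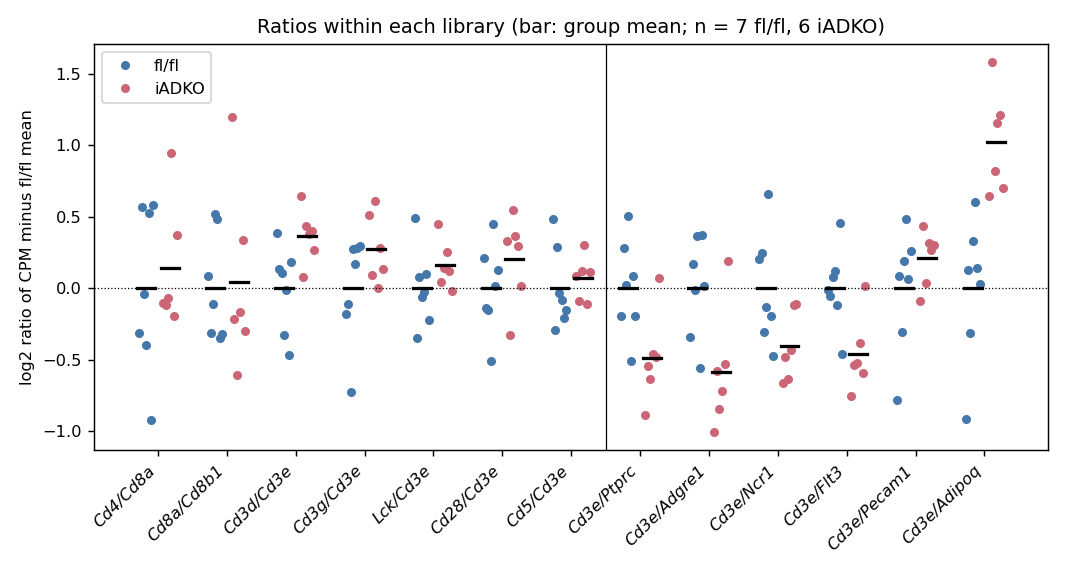
Log2 ratios of CPM within each library minus the mean of that ratio in fl/fl, with 1 point per library and a bar at the mean of the 7 fl/fl (blue) or 6 iADKO (red) libraries. The 7 ratios between T cell genes overlap between genotypes, and the ratios right of the line, of *Cd3e* to a marker of another cell type, were chosen after their values had been seen.

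The mean log2 CPM of the 9 genes, relative to the fl/fl mean, was lowest in fl/fl replicates 1 and 3, at -0.32 and -0.28, and highest in fl/fl replicate 4, at 0.25. In iADKO it was lowest in replicate 1, at 0.26, and 0.46 to 0.59 in the other 5 libraries. The top fl/fl and bottom iADKO libraries were thus almost level, and the iADKO libraries other than replicate 1 were closely packed. After each genotype's mean was taken out, the 36 pairs of members had a median Pearson correlation of 0.39 over the 13 libraries, 28 of them above 0. *Cd3e* and *Cd3g* went together most closely (0.76), whereas *Cd3d* and *Cd8a* went in opposite directions (-0.65), and *Cd8a* and *Cd8b1* had a correlation of 0.41. All points share a library's depth and scaling factor, and at counts this low the weaker values carry no weight.

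**Figure D4:**
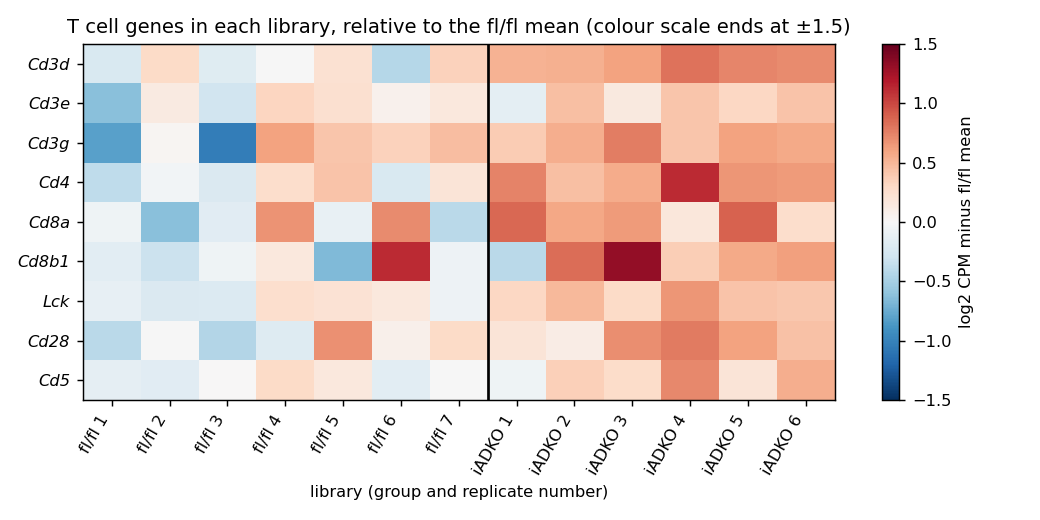
Log2 CPM of each T cell gene in each library minus the gene's fl/fl mean, with genes in rows, the 7 fl/fl and 6 iADKO libraries in columns, and a color scale centered on 0. *Cd3d*, *Cd3g*, *Cd4*, *Cd8a*, *Lck* and *Cd28* are positive in every iADKO library, and fl/fl replicates 1 and 3 are low in *Cd3g*.

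The numbers in the library names fall into 4 runs, of which 2 hold both genotypes, and the labels do not say what the runs are. Within the run of fl/fl replicates 4 and 5 and iADKO replicates 4 and 6, 7 of 9 members were higher in iADKO, with a median log2 difference of 0.36, and *Cd3g* (-0.01) and *Cd8a* (-0.06) were the 2 that were not. Within the run of fl/fl replicates 1, 2 and 3 and iADKO replicates 1 and 2, 9 of 9 were higher, with a median of 0.55. *Cd4* differed by 0.53 and 0.80 in these runs, *Cd3d* by 0.63 and 0.55, and *Lck* by 0.30 and 0.57. The difference of *Cd3g* was 1.04 in the second of these runs, which held the low fl/fl replicates 1 and 3. The other 2 runs held a single genotype each.

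Other genes of T cell signaling and its ligands, some of them also made by other cells, were read from 8 lists of 63 genes grouped by role, of which 60 were tested. Of these, 27 were higher in iADKO and 1 was lower, with a median log2 fold change of 0.43. Of all 16753 genes tested, 14.1% were higher and 2737 genes were lower. The lists differed in how many members were called, and those with 1 of 7 or 1 of 8 genes higher were near the share over all genes. Among the other receptor chains, 1 of 5 was higher, *Trac*, the constant region of the alpha chain, which averaged 4.21 ± 0.735 CPM without Cre (SD, n = 7) but 5.39 ± 0.623 CPM with it (SD, n = 6; log2 fold change 0.35, adjusted p = 0.0461). Its call was lost in 15 of 23 alternatives, in which the adjusted p reached 0.163. The other genes of this list did not pass the test, *Trbc1* at 0.35 (adjusted p = 0.304), *Trbc2* at 0.18 (adjusted p = 0.431) and *Trdc* at 0.18 (adjusted p = 0.602). *Cd247* did not differ, at -0.008 (adjusted p = 0.973). The median of this list was 0.18.

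Of 16 genes of proximal signaling, which carry the signal from the phosphorylated CD3 chains inward, 10 were higher and none was lower (median 0.47). *Skap1*, an adaptor for integrin activation, averaged 2.09 ± 0.290 CPM in fl/fl (SD, n = 7), 3.31 ± 0.373 CPM in iADKO (SD, n = 6), and differed by 0.66 on the log2 scale (adjusted p = 0.00169), with no overlap between groups. *Fyn*, the other Src family kinase of T cells, which many other cells make, had the highest level of the list, 54.5 and 63.7 CPM (log2 fold change 0.23, adjusted p = 0.013).

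LCK is switched by enzymes that set its phosphorylation, and 4 of 5 of these regulators were higher in iADKO (median 0.71). *Ptprc* codes for CD45, the phosphatase that activates LCK in T cells and is made by nearly all leukocytes. Its mean was 100.5 ± 31.7 CPM over the fl/fl libraries (SD, n = 7), 164.6 ± 22.6 CPM over the iADKO libraries (SD, n = 6), and the log2 fold change 0.71 (adjusted p = 0.00846). *Csk*, the kinase that inhibits LCK, differed by 0.20 (adjusted p = 0.0368), a call lost in 11 of 23 alternatives. The phosphatase genes *Ptpn6* and *Ptpn22* were higher by 0.76 (adjusted p = 0.0105) and 0.71 (adjusted p = 0.000786). In *Ptpn22* the groups did not overlap. None of these regulators is confined to T cells.

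Costimulation and inhibition had 1 of 8 genes higher, *Cd226*, an activating receptor shared with NK cells (log2 fold change 0.58, adjusted p = 0.00466, no overlap). Of the transcription factors of the T lineage, 1 of 7 was higher and 1 was lower. *Foxp3*, the factor that defines regulatory T cells, averaged 0.997 ± 0.322 CPM over the fl/fl libraries (SD, n = 7), 1.77 ± 0.409 CPM over the iADKO libraries (SD, n = 6), and its log2 fold change was 0.83 (SE 0.22, adjusted p = 0.0128), on 10 to 53 reads per library. With 1 surrogate variable its adjusted p was 0.0548, and the other 22 alternatives kept the call.

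Receptors for homing and cytokines had 5 of 8 genes higher (median 0.43), with *Il2rb*, shared with NK cells, at 13 and 17.8 CPM (log2 fold change 0.45, adjusted p = 0.00167, no overlap) and *Il7r* at 14.8 and 27.7 CPM (0.90, adjusted p = 0.00614). *S1pr1*, which lets lymphocytes leave tissue and is strongly made by endothelium, had the highest level, at 90.8 and 88.0 CPM (-0.05, adjusted p = 0.702). Of 6 effector products only 3 had enough reads to test, and *Gzmb* was higher at 0.899 and 1.41 CPM (0.64, adjusted p = 0.046), a call that was lost in 13 of the 22 alternatives that tested it (adjusted p up to 0.24). *Ifng*, *Il2* and *Il17a* were not tested, with means under 0.1 CPM in both groups.

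The ligands of the coreceptors and of CD28 had 4 of 8 genes higher. All 3 MHC class II genes, whose products bind CD4, were among them, *H2-Aa* with means of 400.5 ± 74.4 CPM in fl/fl (SD, n = 7), 715.0 ± 81.2 CPM in iADKO (SD, n = 6), and a log2 difference of 0.84 (adjusted p = 0.000412). *H2-Ab1* and *H2-Eb1* were higher by 0.80 (adjusted p = 0.000616) and 0.83 (adjusted p = 0.000266), and none of the 3 overlapped between groups. *Cd86*, a ligand of CD28, was higher by 0.67 (adjusted p = 0.000673). The MHC class I genes *H2-K1* and *H2-D1* and their partner *B2m*, whose products are bound by CD8, did not pass the test.

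**Figure D5:**
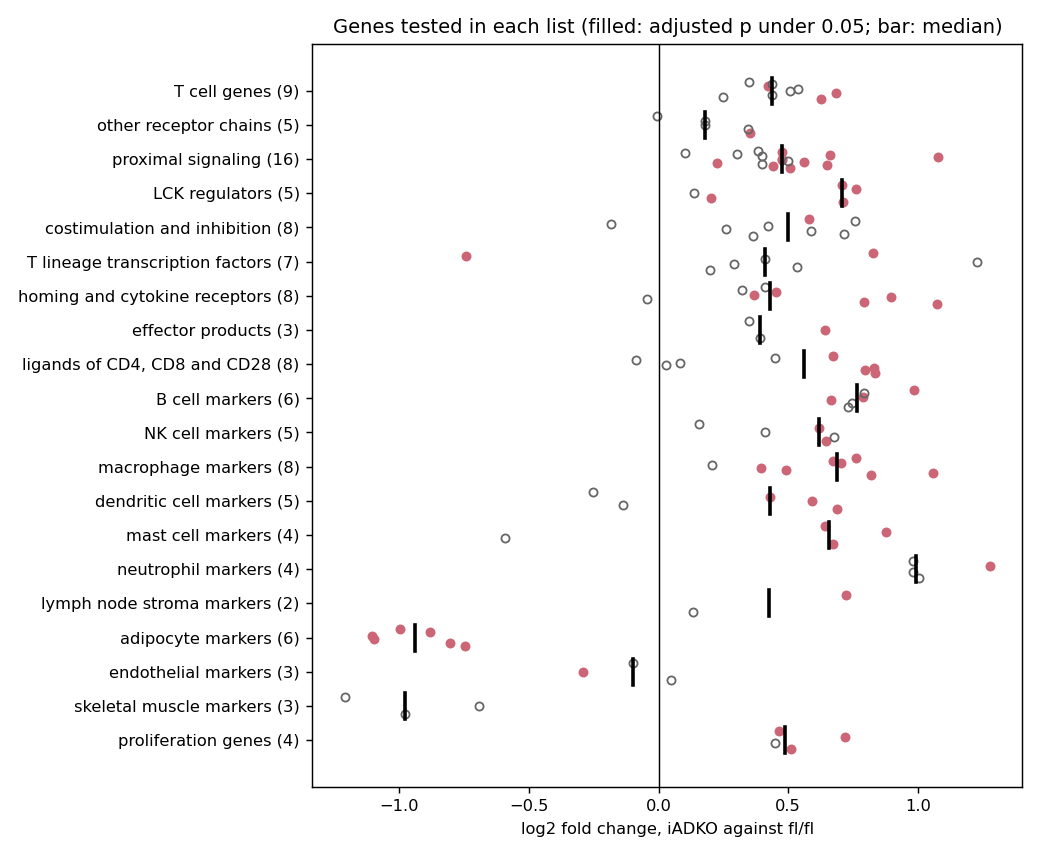
Fitted log2 fold change, iADKO minus fl/fl, of every tested gene in each list of T cell pathway genes and of markers of other cells, with the list's median. Filled points are past the threshold, the T cell pathway genes lie mostly above 0, and the 6 adipocyte markers lie at -0.75 or below.

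Most markers of other leukocytes, like the T cell genes, had log2 fold changes above 0, and their part in the result was not tested. Of all genes tested, 14.1% were higher. Of 8 macrophage markers 7 were higher (median 0.69), and their summed CPM were 1341 to 2492 in fl/fl and 1747 to 3012 in iADKO. *Adgre1*, the macrophage surface protein F4/80, was higher by 0.82 (adjusted p = 0.00563). Of 6 B cell markers 3 were higher (median 0.77, summed 28.6 to 72.5 and 57.6 to 114.1 CPM), by name *Cd22* (0.99, adjusted p = 0.0117), *Cd79b* (0.79, adjusted p = 0.0338) and *Cd79a* (0.66, adjusted p = 0.0499). Of 5 NK cell markers, *Ncr1* (0.64, adjusted p = 0.0375) and *Klrd1* (0.62, adjusted p = 0.0177) were higher, with summed levels of 5.06 to 10.3 and 9.83 to 12.3 CPM. Of 5 dendritic cell markers, *Flt3*, *Xcr1* and *Clec9a* were higher, by 0.69, 0.59 and 0.43, while the summed levels were 48.5 to 73.1 and 50.8 to 59.7 CPM. *Zbtb46* and *Cd209a* went the other way, at -0.14 and -0.25, and did not pass the test (adjusted p = 0.0546 and 0.499). The calls of *Cd79a*, *Cd79b* and *Ncr1* were lost in 15, 11 and 10 of 23 alternatives, those of *Clec9a* and *Xcr1* in 11 and 6, and that of *Flt3* in 2. No marker of these 4 lists was at 0 in any library.

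Of 4 mast cell markers 3 were higher (median 0.66), while *Kit*, at -0.59, went the other way and did not pass the test (adjusted p = 0.138). Of 4 neutrophil markers 1 was higher, *Retnlg* (1.28, adjusted p = 0.0098). The summed neutrophil markers ran from 7.22 to 141.9 CPM in fl/fl and from 41.3 to 219.8 CPM in iADKO. Of 4 proliferation genes 3 were higher, *Mki67* by 0.51 (adjusted p = 0.018). Stromal markers of lymph nodes, which lie in some fat depots, were given as a check on nodal tissue. *Ccl21a*, a chemokine gene of nodal stroma, was counted in every library, with 342 to 1008 reads, and averaged 33.2 CPM in fl/fl against 36.4 CPM in iADKO, a difference that did not pass the test. *Ccl19* had 3 to 14 reads per library and *Madcam1* 1 to 6, and *Glycam1*, made by the high endothelial venules of nodes, had 1 read in fl/fl replicate 7 and 0 elsewhere, so these 3 were not tested. *Cxcl13*, also made outside nodes, was higher by 0.72 (adjusted p = 0.0184), and the summed list was at 24.4 to 59.6 and 31.3 to 55.6 CPM.

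All 6 adipocyte markers were lower in iADKO (median -0.94), with *Cidec* at -1.11 (adjusted p = 0.000394), where 2737 of all 16753 genes tested were lower. Every CPM was taken against the library's total multiplied by its TMM scaling factor, not against the plain total. These factors were higher for the iADKO libraries (1.05 to 1.10) than for the fl/fl libraries (0.892 to 1.02). The iADKO values therefore lie below their plain shares of the reads. Whether this scaling fully offsets the lower share of adipocyte transcripts was not tested. Of 3 endothelial markers 1 was lower, *Cdh5* at -0.29 (adjusted p = 0.014), and the summed list overlapped at 490.9 to 681.4 and 522.8 to 599.4 CPM. Of 3 skeletal muscle markers none passed the test, with *Myh4* from 0 to 121.5 CPM in fl/fl and from 0 to 53.4 CPM in iADKO. The part of these shifts in the T cell result was not tested.

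Genes whose pattern over the 13 libraries was most like the mean of the 9, after each genotype's mean was taken out, were *Zfp513* (Pearson r 0.94), *Apol7e* (0.90), *Haghl* (0.90), *2010204K13Rik* (0.90), *Pramel12* (0.88), *Gm8437* (0.88), *Gm30648* (0.88) and *Shisa3* (0.88). They are the top 8 of 16753 genes over 13 libraries and are given as a description. Leaving out a library kept 2 to 7 of the 8, and only *Pramel12* was called between genotypes (log2 fold change 0.39, adjusted p = 0.00177). Of the genes on the pathway and marker lists, the closest were the NK cell gene *Klrb1c* (0.84), the chemokine receptor gene *Cxcr6* (0.83), and *Lat* (0.83), *Trdc* (0.82) and *Themis* (0.82), which take part in T cell receptor signaling. By list, the median correlation was 0.66 for the other receptor chains, 0.61 for proximal signaling and 0.60 for homing and cytokine receptors. It was 0.58 for the ligands of CD4, CD8 and CD28, which other cells make, and 0.54 for NK cell markers. Macrophage markers were at 0.34, B cell markers at 0.07 and adipocyte markers at -0.37. The lists not named here were at 0.41 or lower. These points share library depth and scaling, and the lists named here hold 5 to 16 tested genes each.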

How the data were processed

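Whole pmWAT of 13 female mice, 7 labelled fl/fl and 6 labelled iADKO, was analyzed, with genotypes and replicate numbers taken from the labels. The deposited values are unnormalized read counts for each gene and log2 values, the rlog transform of those counts by the authors with DESeq2. Per the study's methods and the submitters' processing notes, strand-specific paired-end libraries (DNBSEQ) were checked with FastQC 0.12.1, aligned with STAR 2.7.11a to mm39 and compared with DESeq2. The counting tool, the annotation and the DESeq2 design are not given in the sources used here. Use of strand decides how overlapping genes share reads.

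In R 4.3.3, edgeR 4.0.16's filterByExpr kept 16753 of 33618 genes, counts were normalized by TMM, and genotypes were compared with its robust quasi-likelihood test at a Benjamini-Hochberg adjusted p of 0.05. Log2 CPM used a prior count of 2. Single members and ratios were compared by permutation, exact and two-sided, through the 1716 splits into 7 and 6 (numpy 2.4.6). Likeness was Pearson's r of log2 CPM after subtracting genotype means. Coordinates and promoter starts are from GENCODE vM39 and sequence from GRCm39. The tests were tried on simulated data first. Within a genotype, chi-square per degree of freedom between libraries was 8.16 to 88.8, above counting noise between copies of a library. Each library is from another mouse. The deposited depth lies in a narrow range, 18854223 to 19776491 reads, so that precision differs little between libraries, and counting errors cover reads only.

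All members are named. Of other lists, genes past the threshold are named, or, where none or more than 4 passed, the 2 with the lowest p and the 1 with the highest level. *H2-K1*, *H2-D1*, *B2m*, *Ifng*, *Il2*, *Il17a*, *Zbtb46*, *Cd209a*, *Kit*, *Ccl21a*, *Ccl19*, *Madcam1*, *Glycam1* and the list genes most like the members were added after their values were seen. So were *Trbc1*, *Trbc2*, *Trdc* and *Cd247*. The members and lists were chosen with earlier results of these data known. Alternatives were DESeq2's size factors, DESeq2 1.42.0's Wald test, no filter, at least 10 counts in every sample, a replicate block, a block of library-number runs, limma 3.58.1 on the rlog values, normalization without mitochondrial genes, a surrogate variable (sva 3.50.0), each library left out, prior counts of 0.5 and 5, and, chosen after seeing the data, fl/fl replicate 5 and iADKO replicate 6 left out. Some single-gene values are not reported here. Other experiments of the study were not analysed here.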

Additional observations from a re-analysis of the deposited data

Results flagged for a closer look

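*Cd8b1* in fl/fl replicate 6, at 2.10 CPM, was farther from the rest of its group than the spread of 7 samples usually allows, since the gap to the next library took up 0.687 of the group's range. This was the only such value among 32 groups tested. Chance alone flags about 1 group in 20, so a single flag among 32 groups is no more than chance gives. The same library had the highest *Cd8a* of its group, 5.02 CPM. Its *Cd3e* was 3.53 CPM and its *Cd4* 5.30 CPM, both inside the range of the other fl/fl libraries.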

How the results depend on the processing

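Of the 9 T cell genes, *Cd4* was called in all 23 alternatives, *Cd3d* and *Lck* in 22 each, and *Cd3e* and *Cd3g* in none. With each library left out in turn, 3 to 5 of the 9 were called (5 without fl/fl replicate 4 and 5 without fl/fl replicate 6), 24 to 32 of the other T cell pathway genes, and 3998 to 6604 of all genes, where the reported counts were 3, 28 and 5104. With the library-number runs as a block 1986 genes were called. With 1 surrogate variable 2836 genes and 17 pathway genes were called. The causes were not tested. The log2 fold change of *S1pr1* turned to 0.042 with the surrogate variable and ran from -0.086 to 0.0014 with a library left out (above 0 without fl/fl replicate 3), and that of *Myh4* turned to 0.13 without fl/fl replicate 5 and iADKO replicate 6. The pair of libraries left out gave 4 T cell genes and 31 pathway genes. Depth, at 12 to 283 reads per member and library, limits the precision. In fl/fl the spread between mice exceeded counting error in every member but *Cd5*, the called genes among them.

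Same-numbered mice did not deviate together in every pair (correlations -0.03 to 0.22 over 6 pairs), and 2 of 6 iADKO libraries matched their own number best, so that the numbers were not taken to pair the mice. With the replicate number as a block and fl/fl replicate 7 left out, 3 T cell genes, 28 pathway genes and 4833 of all genes were called.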

Other observations

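*Cd3e* was set beside markers of other cells in ratios chosen after the values were seen, adjusted over 7 ratios. These ratios are of *Cd3e* alone, the member with the lowest log2 fold change of the 9 (0.25). The other members, up to 0.68 for *Cd4*, were not set against these markers, so the ratios do not stand for the T cell genes as a set. Against *Ptprc*, the marker of all leukocytes, the log2 ratio of *Cd3e* was lower in iADKO by a difference of -0.49 (exact permutation p = 0.0239, adjusted 0.0418). It was also lower against *Adgre1* of macrophages (-0.58, exact permutation p = 0.0239, adjusted 0.0418) and *Flt3* of dendritic cells (-0.46, exact permutation p = 0.0134, adjusted 0.0418). Without iADKO replicate 1 or 3 the unadjusted p against *Ptprc* was 0.0556 and 0.0505. With all libraries 4 of the 7 ratios were past the adjusted threshold. Without fl/fl replicate 5 or iADKO replicate 6 there were 4, without fl/fl replicate 7 there were 5, and without any other single library there was 1. Against *Adipoq*, *Cd3e* was higher by 1.02 (exact permutation p = 0.00117, adjusted 0.00816). The differences against *Ncr1* of NK cells (-0.41) and *Pecam1* of endothelium (0.21) did not pass after adjustment (adjusted exact permutation p-values of 0.0734 and 0.307).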
